A study of Mus musculus with 4 samples.

Results

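A set of 10 genes of the rapid response to a stimulus was followed across the cell classes of the mouse lung: the immediate early genes Fos, Fosb, Jun, Junb, Egr1, Ier2, Atf3 and Dusp1, and Klf2 and Klf4, which endothelium also induces under blood flow. They were taken by their exact symbols, whatever their level, and are 10 of the 30028 genes listed in the 4 libraries. The study sequenced single cells of whole lung from 4 groups of mice aged 11 weeks. HSK mice carried a Fundc1 knockout and HSW mice were wild type, and both received HySu, a model of pulmonary hypertension in which hypoxia is joined to SU5416, a VEGF receptor inhibitor given once a week, 3 times in all. NK mice carried the knockout and NW mice were wild type, and both were kept in normoxia and given the vehicle alone. FUNDC1 is a receptor for mitophagy on the outer mitochondrial membrane. The series title names endothelial FUNDC1, whereas the labels give neither a Cre driver nor the cells in which the gene was deleted.

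Immediate early genes are transcribed within minutes of a stimulus by factors already present in the cell, such as SRF with its ternary complex partners and CREB, and need no new protein for it. FOS and FOSB pair with JUN and JUNB to form the AP-1 transcription factor, EGR1 is a zinc finger factor, ATF3 is a stress-induced factor of the ATF family, and DUSP1 is a phosphatase that shuts off the MAP kinases. IER2 is a nuclear protein of the same early wave. In endothelium, laminar flow induces KLF2 and KLF4 through the kinases MEKK3, MEK5 and ERK5 and the MEF2 factors, and in lymphocytes KLF2 keeps cells quiescent and directs their traffic. Enzymatic digestion of tissue at body temperature is itself known to induce many of these genes. All lungs here were digested in that way, so the values are those of dissociated cells, and the part that digestion has in them was not tested.

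Each group was 1 library made from the pooled cells of 5 mice, so the comparisons have no biological replicate and no test was made; intervals are exact 95% intervals for counting error only, and UMIs of 1 cell are not independent. The libraries held 4128 barcodes in HSK, 5041 in HSW, 9164 in NK and 7649 in NW, with 41308071, 45589625, 63501686 and 62747087 UMIs in the same order. Pairs of libraries shared 20 to 70 cell barcodes. Cells were clustered without the 10 genes, and clusters were named from marker genes, so a class name means cells with the markers of that type; the defining genes were Chil3 and Marco for alveolar macrophages, C1qa for interstitial macrophages, Ly6c2 and Treml4 for classical and non-classical monocytes, S100a8 for neutrophils, Xcr1 or Siglech for dendritic cells, Cd3d or Gzma for T and NK cells, Cd79a or Jchain for B and plasma cells, Sftpc and Ager for alveolar type 2 and type 1 cells, Foxj1 and Scgb3a2 for ciliated and club cells, Col1a1 for fibroblasts, and Cdh5 for vascular endothelium. Cells with UMIs of a second lineage were removed before counting, 11.5% of the cells in HSK, 19.5% in HSW, 29.1% in NK and 23.1% in NW. The 14 classes with at least 20 cells in a library are reported; HSK had too few non-classical monocytes and alveolar type 1 cells, and smooth muscle cells, pericytes and lymphatic endothelium were too few throughout.

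Fundc1 itself matched the labels in every class. It was at 0 to 1.83 CPM, that is UMIs of the gene per 1000000 UMIs of the class, in the knockout libraries and at 17.0 to 58.4 CPM in the wild-type libraries. Vascular endothelial cells had 0 CPM in HSK and 1.69 in NK, against 47.8 in HSW and 22.9 in NW. Values near 0 in the knockout libraries were found in all classes and not in endothelium alone.

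The 250 bases in front of the transcription start were compared for 8 of the 10 genes, from RefSeq on build GRCm38.p6, since some sites at which stimulus-activated factors act can lie there. Those of Fos (chr12:85473640-85473889, plus strand), Dusp1 (chr17:26508473-26508722, minus strand), Atf3 (chr1:191183334-191183583, minus strand) and Klf2 (chr8:72318812-72319061, plus strand) are shown 5′ to 3′. Fos and Dusp1 had the most alike levels across classes and libraries, Atf3 departed from them under HySu, and Klf2 stands for the flow-induced genes. Capitals mark the element TGACGT on either strand, which the CREB and ATF factors bind, its full form TGACGTCA, and a MEF2 site.
Fos: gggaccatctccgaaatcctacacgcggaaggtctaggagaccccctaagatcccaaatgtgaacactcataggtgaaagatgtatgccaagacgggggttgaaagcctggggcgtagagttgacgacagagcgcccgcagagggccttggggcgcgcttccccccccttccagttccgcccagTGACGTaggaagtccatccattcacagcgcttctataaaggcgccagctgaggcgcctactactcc
Dusp1: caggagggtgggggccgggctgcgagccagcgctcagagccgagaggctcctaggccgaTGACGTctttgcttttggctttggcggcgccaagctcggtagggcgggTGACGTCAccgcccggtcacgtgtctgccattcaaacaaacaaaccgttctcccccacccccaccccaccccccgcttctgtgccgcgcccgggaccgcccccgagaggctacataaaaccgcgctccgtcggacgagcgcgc
Atf3: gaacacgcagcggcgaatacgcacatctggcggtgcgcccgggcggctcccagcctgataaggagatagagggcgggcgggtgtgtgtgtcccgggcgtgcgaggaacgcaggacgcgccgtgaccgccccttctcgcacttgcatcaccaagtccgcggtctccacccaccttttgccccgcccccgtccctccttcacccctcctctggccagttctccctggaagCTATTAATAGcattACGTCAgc
Klf2: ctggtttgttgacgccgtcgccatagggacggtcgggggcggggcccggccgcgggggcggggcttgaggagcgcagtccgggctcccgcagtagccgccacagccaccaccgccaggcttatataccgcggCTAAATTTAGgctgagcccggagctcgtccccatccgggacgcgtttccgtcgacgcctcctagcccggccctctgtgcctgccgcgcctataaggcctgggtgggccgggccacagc
The TGACGT element lay at -66 from the start in Fos and at -8 in Atf3. Dusp1 had it at -191 and, within the full form, at -143. MEF2 sites lay at -118 in Klf2, at -22 in Atf3 and at -33 in Jun. Of 32851 windows of 300 bases around the starts of all genes, 7.51% held TGACGT, 1.79% the full form and 3.19% a MEF2 site. The AP-1 element TGANTCA, in 7.81% of all windows, and the CArG box, at which SRF binds, in 1.63%, were in none of the 8 windows, and Fosb, Junb and Klf4 held none of the motifs searched. A match describes these letters and shows neither binding nor its absence. Sites further from the start lay outside the windows and were not searched, so a gene without a motif here may hold it elsewhere. Ier2 is named only.

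Of the AP-1 genes, Fos, Fosb and Junb had their highest median levels in myeloid cells. Fos, a leucine zipper partner of the JUN proteins, stood at 2867 CPM in HSK, 3253 in HSW, 5460.2 in NK and 5295 in NW among classical monocytes. Neutrophils had 2179 CPM in HSK, 2393 in HSW, 5609.8 in NK and 5806 in NW, and interstitial macrophages 2418 CPM in HSK, 2471 in HSW, 4098 in NK and 3742 in NW. Low levels were those of club cells, with 284 CPM in HSK, 349.8 in HSW, 881 in NK and 918 in NW, and alveolar type 2 cells, with 563 CPM in HSK, 546 in HSW, 745 in NK and 706 in NW. Both HySu libraries lay below both normoxia libraries in each of these 5 classes. Non-classical monocytes, with too few cells in HSK, had 3066 CPM in HSW, 4626 in NK and 4486 in NW. Their median, which lacks HSK, was the highest of all classes, but classical monocytes were higher in HSW, NK and NW alike. Alveolar type 1 cells, likewise too few in HSK, had 487 CPM in HSW, 701 in NK and 634 in NW. The ranges of all neighbours in the order overlapped. Fosb, a close relative of Fos, was likewise highest in myeloid cells, with 282 to 534 CPM in classical monocytes, 238 to 526 in neutrophils and 331 to 428 in interstitial macrophages, and no other class above 424 CPM. The range of Fosb in fibroblasts, 99.1 to 159 CPM, lay wholly above that of alveolar type 1 cells, and every other neighbour in its order overlapped.

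Jun, the partner that can also pair with itself, was highest in vascular endothelial cells in all 4 libraries, at 1916 CPM in HSK, 1917 in HSW, 2754 in NK and 2588 in NW. Non-classical monocytes had the next median, which lacks HSK, with 1750.3 CPM in HSW, 2046 in NK and 2026 in NW. Classical monocytes, at 2253 CPM in NK and 2108 in NW, and fibroblasts, at 2060 and 2042, were above them in both normoxia libraries. Interstitial macrophages were above them in NK, at 2221 CPM. The 4-library ranges of all neighbours in the order overlapped. Junb was highest in neutrophils of the normoxia libraries, at 852 CPM in HSK, 691 in HSW, 1478 in NK and 1499 in NW, with interstitial macrophages at 792 CPM in HSK, 887 in HSW, 1309 in NK and 1087 in NW. Club cells were lowest for Jun, at 229 to 1124 CPM, and for Junb, at 81.4 to 315 CPM. Their upper ends were both set by NK.

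Egr1 had its highest median in fibroblasts, followed by interstitial macrophages, and Ier2 was high in fibroblasts and vascular endothelial cells. Egr1 stood at 422 CPM in HSK, 475 in HSW, 905 in NK and 1051 in NW in fibroblasts. Interstitial macrophages had 383 CPM in HSK, 346 in HSW, 612 in NK and 547 in NW, and vascular endothelial cells 462 CPM in HSK, 369.7 in HSW, 405 in NK and 672 in NW. These ranges overlapped one another, and the endothelial one lay above that of neutrophils, the next in order. T and NK cells were lowest, with 62.9 to 117 CPM. Ier2 was at 321 CPM in HSK, 464 in HSW, 461 in NK and 615 in NW in fibroblasts and at 541 CPM in HSK, 439 in HSW, 403 in NK and 478 in NW in vascular endothelial cells, and its ranges overlapped at every step down to alveolar type 1 cells, with 129 to 183 CPM. The larger neutrophil cluster had Ier2 at 600 CPM in NK, above fibroblasts and vascular endothelial cells of that library.

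Atf3 had its highest median in interstitial macrophages, at 1403 CPM in HSK, 1315 in HSW, 892 in NK and 1350.4 in NW. Classical monocytes had 1012 CPM in HSK, 1107 in HSW, 877 in NK and 1057 in NW, and neutrophils 644 CPM in HSK, 507 in HSW, 1051 in NK and 1177 in NW. The macrophages and monocytes did not show the split between HySu and normoxia libraries that Fos had, whereas neutrophils did. Dusp1 stood at 1250.4 CPM in HSK, 1314 in HSW, 3011 in NK and 3239 in NW in neutrophils and at 1289 CPM in HSK, 1383 in HSW, 2177 in NK and 2097 in NW in classical monocytes. Its endothelial range, 521 to 625 CPM, lay above that of alveolar type 1 cells, the class below it.

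The flow-induced pair was shared between endothelium, lymphocytes and monocytes. Klf2 was at 1532 CPM in HSK, 981 in HSW, 1173 in NK and 1055 in NW in vascular endothelial cells. B and plasma cells had 976 CPM in HSK, 902 in HSW, 1558 in NK and 1655 in NW, neutrophils 649 CPM in HSK, 953 in HSW, 1688 in NK and 1649 in NW, and non-classical monocytes 1283 CPM in HSW, 1170.4 in NK and 1248 in NW. These 4 classes overlapped, and HSK was the only library in which endothelium led. Klf4, a factor also used in monocyte differentiation, had its highest median in non-classical monocytes, at 938 CPM in HSW, 1323 in NK and 1278 in NW. Vascular endothelial cells had 879 CPM in HSK, 663 in HSW, 1407 in NK and 612 in NW, with NK far above the other libraries. Classical monocytes had 376 to 936 CPM and alveolar macrophages 451 CPM in HSK, 576 in HSW, 714 in NK and 737 in NW. Alveolar type 2 cells, with 52.7 to 63.9 CPM, and ciliated cells, with 29.0 to 69.8 CPM, were the lowest.

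**Figure D1:**
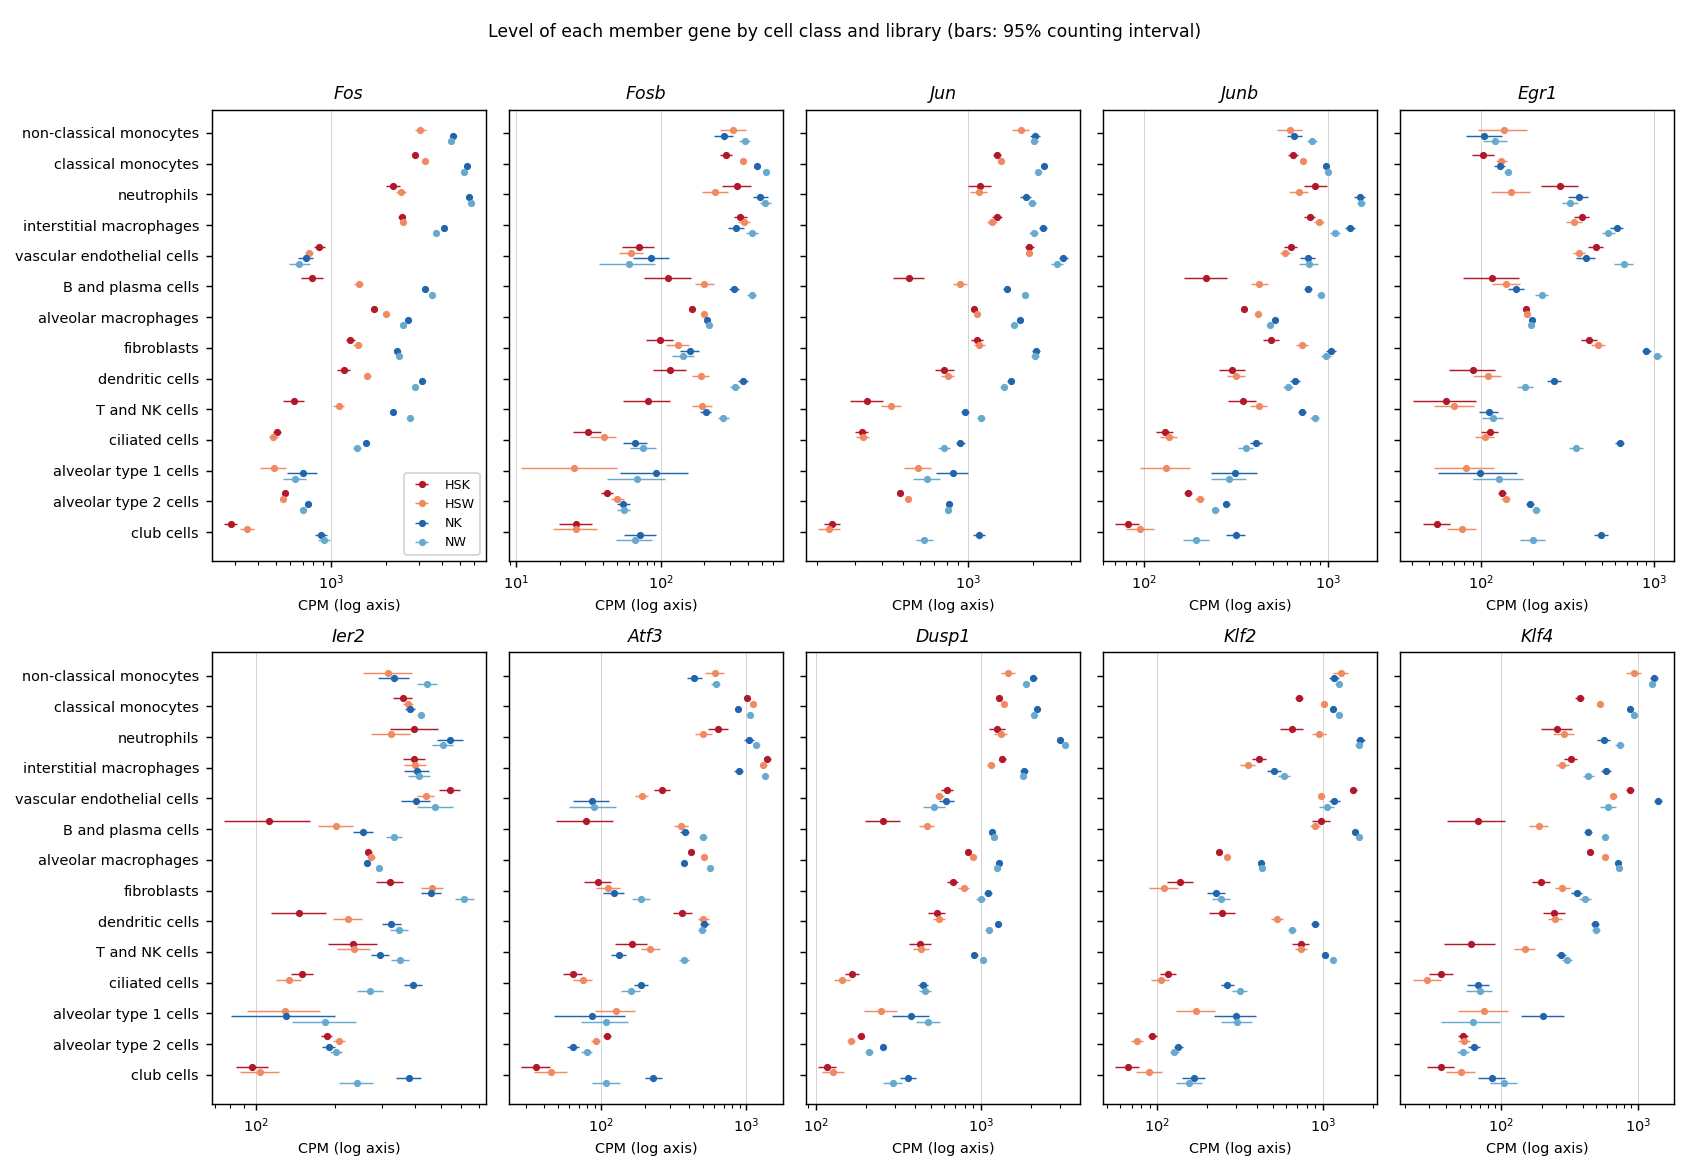
Level of each gene (CPM, log axis) by cell class, 1 point per library in the order HSK, HSW, NK, NW, with exact 95% Poisson intervals for counting error. Fos is highest in monocytes and neutrophils, Jun in vascular endothelial cells of all 4 libraries, and Klf4, by its median, in non-classical monocytes. For most of the genes, points of the HySu libraries lie below those of the normoxia libraries in most classes, which holds less for Atf3 and Ier2.

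To ask how HySu changed these genes in wild-type lungs, HSW was set against NW. Of 140 pairs of gene and class with at least 20 UMIs, 79 (56.4%) were at least 1.5-fold lower in HSW, where 37.8% of all genes were, and 1 (0.714%) was at least 1.5-fold higher, where 7.87% of all genes were. The median ratio of the 140 pairs was 0.639. Dusp1, Klf2, Jun, Fos and Egr1 were past the lower limit in 9 to 11 of 14 classes each, Klf4 in 8, Junb in 7, Fosb in 6, and Ier2 and Atf3 in 5 each. Atf3 had the median ratio nearest to 1, 0.940, and Dusp1 the lowest, 0.581.

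Much of this drop was shared by all genes. The median gene was at 0.481 of its NW level in club cells, at 0.530 in ciliated cells, at 0.650 in neutrophils, between 0.724 and 0.898 in 10 other classes and at 0.956 in vascular endothelial cells. Scgb1a1, the main club cell secretory protein, took 78.0% of the UMIs of club cells in HSK, 78.7% in HSW, 55.1% in NK and 60.1% in NW. S100a8, a calcium-binding protein of neutrophils, took 14.6% of theirs in HSK, 12.6% in HSW, 4.14% in NK and 3.95% in NW. Other genes of these classes thus had a smaller share of the UMIs under HySu, and the part of this in the ratios was not tested. Divided by the class median, 29 of the 140 pairs (20.7%) stayed at least 1.5-fold lower, where 17.4% of all genes did, and 2 (1.43%) were at least 1.5-fold higher, where 18.0% of all genes were. The relative lower count was near the background, and the relative median of the pairs was 0.856.

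The knockout lungs gave a like count under HySu. In HSK against NK, 80 of 120 pairs (66.7%) were at least 1.5-fold lower, where 48.9% of all genes were, and 3 (2.50%) at least 1.5-fold higher, where 8.72% of all genes were. Their median ratio was 0.593. Relative to the class median, 24 (20%) were lower, where 20.5% of all genes were, and 7 (5.83%) higher, where 22.7% of all genes were, so that the lower count again matched the background. All 3 pairs past the higher limit before this scaling were of Atf3: in vascular endothelial cells, alveolar type 2 cells, with a ratio of 1.71 (1.52 to 1.92), and interstitial macrophages, with 1.57 (1.44 to 1.72).

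**Figure D2:**
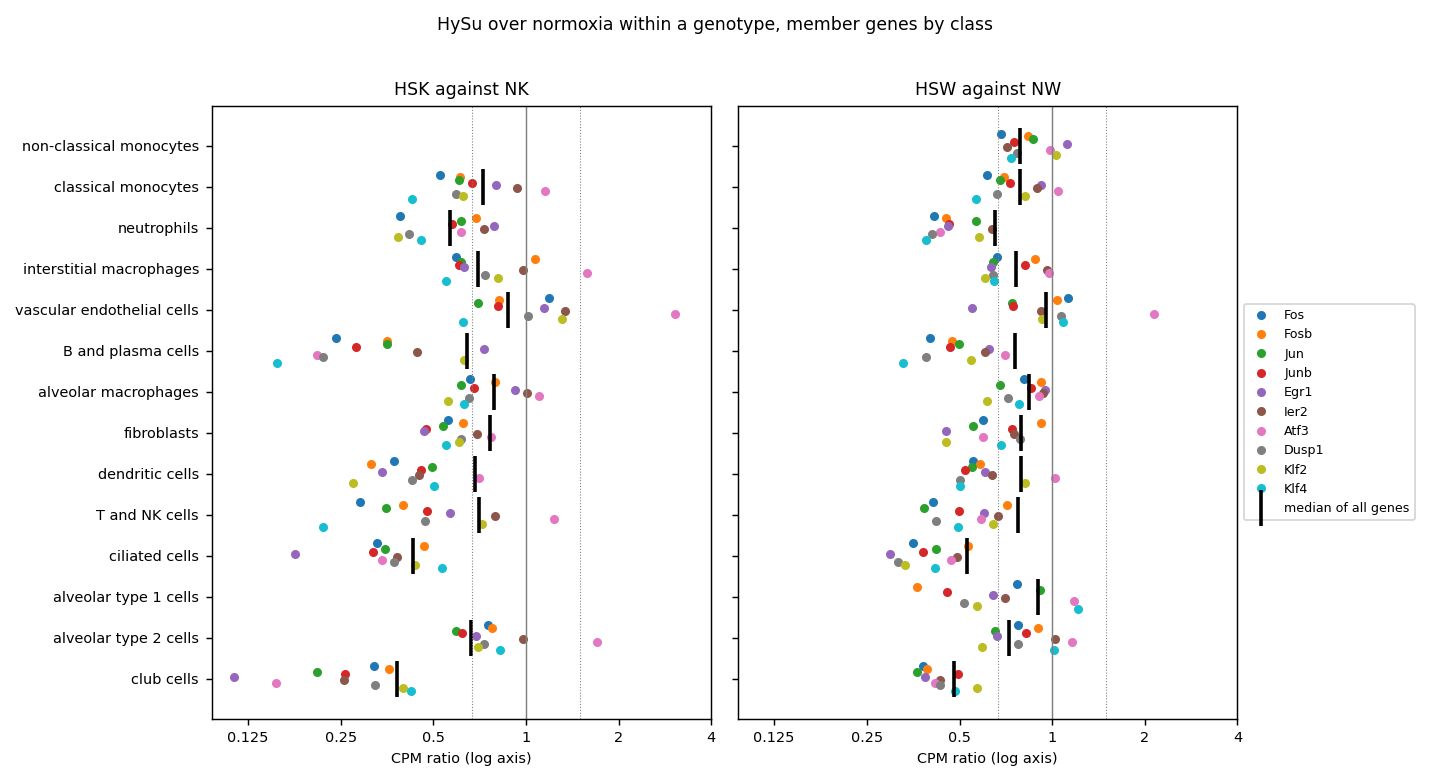
Ratio of CPM under HySu to CPM in normoxia (log axis) for each gene and class, HSK against NK on the left and HSW against NW on the right; 1 coloured point stands for 1 gene without its interval, the black bar is the median of all genes in the class and dotted lines mark 1.5-fold. Most points lie below 1 together with the bar of their class, while most points of lymphocytes and dendritic cells lie below their bar and Atf3 of vascular endothelial cells lies above it.

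Taken as whole classes, lymphocytes and dendritic cells went furthest below the other genes of their class. Among B and plasma cells, Fos was at 785 CPM in HSK, 1416 in HSW, 3253 in NK and 3526 in NW, with a HSW to NW ratio of 0.402 (0.378 to 0.427) and a HSK to NK ratio of 0.241 (0.209 to 0.277). Klf4 there was at 67.6 CPM in HSK, 189 in HSW, 434 in NK and 577 in NW, and Dusp1 at 255 CPM in HSK, 468 in HSW, 1168 in NK and 1206 in NW. HySu libraries were the lower ones for each of these, HSK the lowest. Relative to the class median, 6 of 10 genes were at least 1.5-fold lower in HSW, beside 21.8% of all genes of the class, and 7 of 10 in HSK, beside 31.5%. The class held 2 clusters in different shares, one led by the plasma cell genes Jchain and Igha, with 31 cells in HSK, 95 in HSW, 219 in NK and 169 in NW, and one led by the B cell genes Ighd and Ms4a1, with 6, 19, 147 and 145 in the same libraries. Within the first, the 10 genes had a median ratio of 0.489 against 0.800 for all genes in HSW against NW, and of 0.354 against 0.679 for all genes in HSK against NK. Fos in that cluster was at 539 CPM in HSK, 882 in HSW, 2015 in NK and 2239.8 in NW.

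The T and NK class was alike as a whole, but less so within its clusters. Fos was at 626 CPM in HSK, 1099 in HSW, 2169.8 in NK and 2674 in NW, with ratios of 0.411 (0.382 to 0.442) in HSW against NW and 0.288 (0.252 to 0.329) in HSK against NK. Klf2 differed less, at 739 CPM in HSK, 738 in HSW, 1025 in NK and 1147 in NW. Here too the make-up of the class differed, with a cluster of cycling T cells holding 32 of 50 cells in HSK, 55 of 115 in HSW, 131 of 403 in NK and 56 of 264 in NW. Fos was lower in those cycling cells than in the others, at 393 CPM in HSK, 302 in HSW, 754 in NK and 570.2 in NW. In the cycling cluster the median ratio was 0.569 against 0.833 for all genes for HSW against NW and 0.687 against 0.724 for all genes for HSK against NK. In the other cluster it was 0.748 against 0.753 for all genes for HSW against NW, and HSK had under 20 cells.

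The drop in dendritic cells was steepest in those with the cDC1 markers Xcr1, Clec9a and Itgae. Fos in that cluster was at 831 CPM in HSK, 683 in HSW, 2877 in NK and 2387 in NW, and Dusp1 at 293 CPM in HSK, 386 in HSW, 1315 in NK and 1186 in NW. Klf4 was at 40.1 CPM in HSK, 185 in HSW, 443 in NK and 322 in NW. The HySu libraries, with 23 cells in HSK and 34 in HSW, lay below the normoxia libraries, with 124 in NK and 99 in NW, for each of these genes. Their 10-gene median ratio was 0.413 against 0.769 for all genes in HSW against NW, and 0.298 against 0.674 for all genes in HSK against NK. A cluster with the plasmacytoid markers Siglech and Ccr9 beside the cDC2 marker Cd209a gave 0.644 against 0.812 for all genes and 0.547 against 0.701 for all genes in the same comparisons. Klf2 in it was at 310.1 CPM in HSK, 733 in HSW, 1129.8 in NK and 771 in NW, with HSK lowest.

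Neutrophils had all 10 genes at least 1.5-fold lower in HSW than in NW, beside 52.0% of all genes of the class, and 7 in HSK than in NK, beside 59.4%. Dusp1 was at 0.406 and 0.415 of its normoxia level in these comparisons, and Fos at 0.412 and 0.388. Immature neutrophils, led by Camp, Ngp and Ltf, were 20 of 35 neutrophils in HSK, 28 of 57 in HSW, 29 of 113 in NK and 19 of 142 in NW, and had lower Fos than the mature cells. Fos was at 973 CPM in HSK, 1045 in HSW and 2686 in NK in the immature cluster. There the 10-gene median ratio of HSK to NK, from 20 and 29 cells, was 0.295 against 0.567 for all genes, from 0.130 for Dusp1 to 0.418 for Ier2. Among mature neutrophils it was at 3749 CPM in HSW, 6691 in NK and 6267 in NW, and the 10-gene median ratio of HSW to NW was 0.696 against 0.786 for all genes.

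Airway cells had the lowest ratios before scaling and lay nearer to their class after it. All 10 genes were at least 1.5-fold lower in ciliated and club cells in both comparisons, as were 69.8% and 75.0% of all genes of these classes in HSW against NW and 81.4% and 85.2% in HSK against NK. Egr1 was at 113 CPM in HSK, 106 in HSW, 635 in NK and 355 in NW in ciliated cells and at 55.9 CPM in HSK, 77.5 in HSW, 498 in NK and 199.9 in NW in club cells. Relative to the class median, 4 of 10 in ciliated and 0 of 10 in club cells stayed past the limit in HSW against NW, beside 17.7% and 20.1% of all genes, and 1 and 3 in HSK against NK, beside 18.1% and 21.8%. Klf2 in club cells turned to a relative ratio above 1, 1.19 in HSW against NW and 1.04 in HSK against NK. Heat shock genes, another readout of handling, summed to 2822 CPM in HSK, 2745 in HSW, 6989 in NK and 6132 in NW in ciliated cells, and to 1147 CPM in HSK, 878 in HSW, 4647 in NK and 1765 in NW in club cells; their part in the differences was not tested.

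Macrophages, monocytes and alveolar type 2 cells moved little more than their other genes. Alveolar macrophages had Fos at 1714 CPM in HSK, 1995 in HSW, 2615 in NK and 2469 in NW, with a HSW to NW ratio of 0.808 where the median gene was at 0.840. Klf2 was their one gene past the limit in HSW, at 0.614 (0.589 to 0.640). Classical monocytes had relative medians of 0.906 in HSW against NW and 0.850 in HSK against NK, interstitial macrophages 0.853 and 0.974, and alveolar type 2 cells 1.10 and 1.12. Non-classical monocytes had no gene past 1.5-fold in HSW against NW. In fibroblasts Egr1 and Klf2 were furthest down in HSW, at 0.452 (0.403 to 0.506) and 0.451 (0.355 to 0.571). The same genes gave 0.467 and 0.604 in HSK against NK.

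The other immediate early genes, a list of 28 that includes Zfp36, Btg2, Nr4a1 and the EGR and FOS relatives, were mostly below 1 under HySu as well. Neutrophils had 21 of 23 of them at least 1.5-fold lower in HSW than in NW, where 52.0% of all genes of the class were, with a median ratio of 0.454 beside 0.650 for all genes. Dendritic cells had 17 of 26, where 34.8% of all genes were, with a median of 0.596 beside 0.791, and fibroblasts 18 of 25, where 34.4% were, with 0.548 beside 0.793. Non-classical monocytes had 8 of 21, where 37.6% of all genes were, and vascular endothelial cells 5 of 20, where 19.8% were. In HSK against NK the medians were 0.522 beside 0.566 in neutrophils, 0.454 beside 0.681 in dendritic cells and 0.496 beside 0.765 in fibroblasts. Heat shock genes of dendritic cells stood nearer to the class, at 0.770 and 0.649.

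Median mitochondrial shares were higher in the HySu libraries, at 2.23% in HSK and 2.41% in HSW against 1.32% in NK and 1.62% in NW, and so were the median UMIs per cell, 7846 and 7185 against 5355 and 6311. Cells were therefore also thinned to 4726 UMIs each before counting how many of the 10 genes a cell held. In classical monocytes, 91.4% in HSK, 92.4% in HSW, 97.7% in NK and 97.9% in NW of cells had at least 5 of the 10. In neutrophils the shares were 62.9% in HSK, 83.0% in HSW, 96.2% in NK and 97.2% in NW, in dendritic cells 55.6% in HSK, 70.0% in HSW, 85.2% in NK and 89.4% in NW, and in B and plasma cells 51.4% in HSK, 56.4% in HSW, 86.6% in NK and 88.2% in NW. HySu libraries were below normoxia ones in each of these classes. No class is known to lack these genes; alveolar type 2 cells, the lowest class of the normoxia libraries, gave 37.0% in HSK, 37.1% in HSW, 44.8% in NK and 43.7% in NW, and club cells 23.6% in HSK, 22.0% in HSW, 80.4% in NK and 46.7% in NW. Without thinning the order of HySu and normoxia libraries was the same in these classes apart from the alveolar type 2 cells. The unthinned shares were 93.7% in HSK, 95.8% in HSW, 96.6% in NK and 98.1% in NW in classical monocytes and 68.6% in HSK, 82.5% in HSW, 97.3% in NK and 97.9% in NW in neutrophils. They were 70.4% in HSK, 80.2% in HSW, 90.4% in NK and 93.6% in NW in dendritic cells and 56.8% in HSK, 72.8% in HSW, 88.3% in NK and 92.0% in NW in B and plasma cells. Alveolar type 2 cells had 51.3% in HSK, 47.6% in HSW, 45.6% in NK and 50.9% in NW, and club cells 74.2% in HSK, 68.6% in HSW, 92.5% in NK and 79.2% in NW. Thinning left out 0 cells of HSK, 446 of HSW, 2667 of NK and 1419 of NW.

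**Figure D3:**
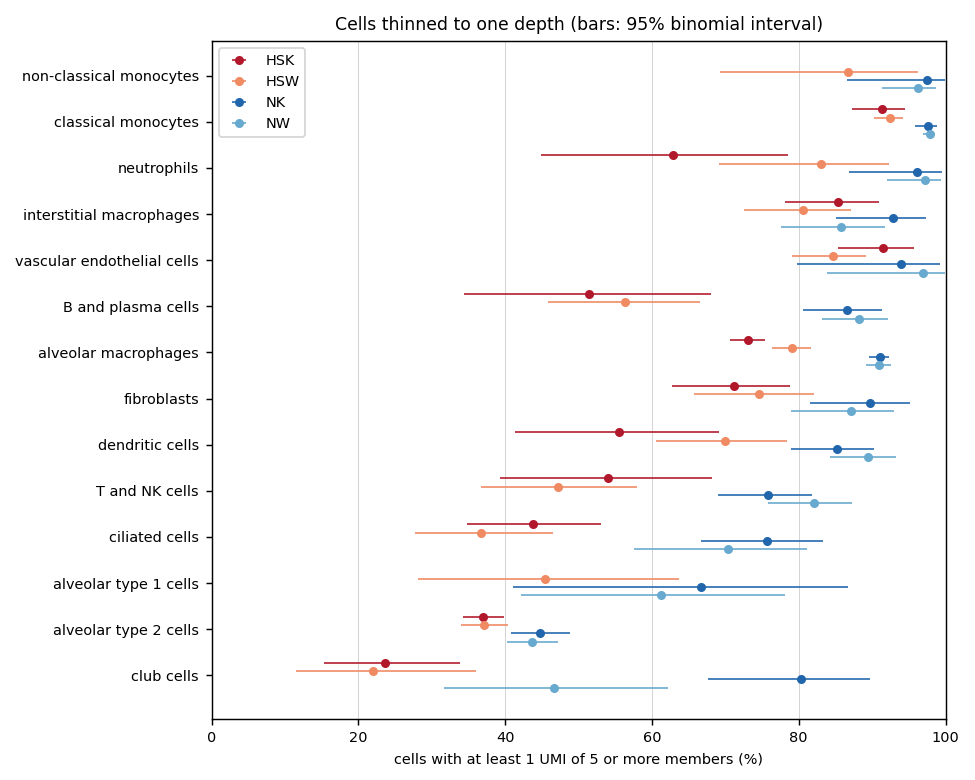
Share of cells (percent) with at least 5 of the 10 genes after each cell was thinned to 4726 UMIs, by class and library in the order HSK, HSW, NK, NW, with exact 95% binomial intervals. Classical monocytes lie above 91% in all 4 libraries, while lymphocytes and dendritic cells lie lower in HSK and HSW than in NK and NW.

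The knockout effect in normoxia, NK against NW, was small for most of the genes. Of 140 pairs, 8 (5.71%) were at least 1.5-fold higher, where 14.8% of all genes were, and 4 (2.86%) at least 1.5-fold lower, where 9.15% of all genes were. The median ratio was 0.980. Relative to the class median, 4 (2.86%) were higher and 6 (4.29%) lower, where 11.6% and 11.4% of all genes were. All of these counts were below the background.

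Of the 8 higher pairs, 5 were in club cells, where 30.3% of all genes were past the same limit. Egr1 was at 498 CPM in NK and 199.9 in NW, a ratio of 2.49 (2.07 to 3.01), and Atf3 at 229 in NK and 108 in NW, a ratio of 2.12 (1.64 to 2.78). Jun, Junb and Ier2 gave 1.78, 1.64 and 1.57. The same 67 NK and 48 NW cells had a heat shock median ratio of 3.52 and a median of 1.97 for the other immediate early genes, beside 1.23 for all genes, and 80.4% of NK against 46.7% of NW club cells held at least 5 of the 10 genes. Ciliated cells had Egr1 at 635 CPM in NK and 355 in NW, and alveolar type 1 cells Klf4 at 205 in NK, from 33 UMIs, and 62.0 in NW, from 18. The remaining one was endothelial Klf4.

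Atf3 gave 3 of the 4 lower pairs. T and NK cells had 132 CPM in NK and 372 in NW, a ratio of 0.355 (0.308 to 0.408), fibroblasts a ratio of 0.653 (0.521 to 0.817) and interstitial macrophages one of 0.660 (0.603 to 0.722). Within the T and NK class Atf3 was at 0.389 (0.334 to 0.452) in the larger cluster and at 0.886 (0.557 to 1.43) in the cycling cells. Fos, Dusp1, Fosb and Klf2 were within 1.5-fold in all 14 classes, between 0.811 and 1.13 for Fos.

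Under HySu the knockout was compared as HSK against HSW. In all, 14 of 120 pairs (11.7%) were at least 1.5-fold lower in HSK, where 12.2% of all genes were, and 2 (1.67%) higher, where 10.1% of all genes were. Relative to the class median the counts were 13 (10.8%) lower and 3 (2.50%) higher, where 11.4% and 11.1% of all genes were. The lower counts were close to the background. B and plasma cells held 8 of the 14, beside 26.3% of all genes of the class, among them Atf3 at 0.222 (0.135 to 0.345), from 21 and 304 UMIs, and Klf4 at 0.357. Within the cluster led by plasma cell genes the 10-gene median was 0.661 against 0.914 for all genes. T and NK cells held 3, Fos at 0.569, Fosb at 0.422 and Klf4 at 0.403, beside 16.8% of all genes of the class. In the cycling cells, the cluster with at least 20 cells in both libraries, the same genes were at 1.30, 1.23 and 3.66, the last with an interval of 1.40 to 10.6. Dendritic cells held the rest, Klf2 at 0.464 (0.379 to 0.565), Fosb at 0.616 and Ier2 at 0.657, and Ier2 went to 1.14 when cells with a second lineage were kept. The 2 higher pairs were endothelial Klf2 and Egr1 in neutrophils, 288 CPM in HSK and 150.3 in HSW, from 68 and 62 UMIs. In the immature neutrophils, the cluster with at least 20 cells in both libraries, Egr1 was at 1.03 (0.395 to 2.57). The mature cluster had 15 cells in HSK.

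**Figure D4:**
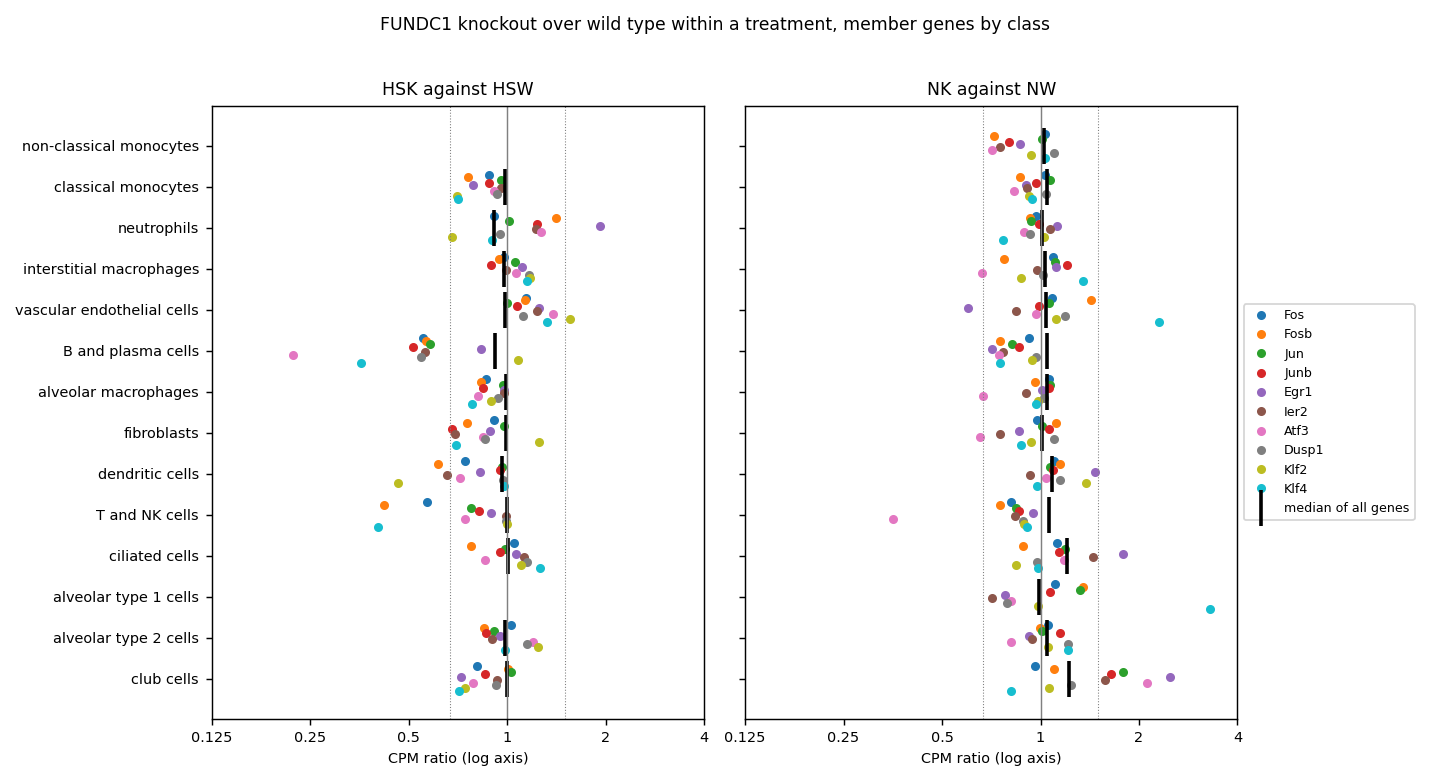
Ratio of CPM in the knockout to CPM in the wild type (log axis) for each gene and class, HSK against HSW on the left and NK against NW on the right, with 1 coloured point per gene without its interval, the median of all genes as a black bar and dotted lines at 1.5-fold. Most points lie between the dotted lines; 8 of the 10 points of B and plasma cells lie below them under HySu, club cell Egr1 and endothelial and alveolar type 1 Klf4 above them in normoxia.

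The HySu effect itself differed between genotypes by 1 or more on the log2 scale, as log2 of HSK over NK minus log2 of HSW over NW, in 8 of 120 pairs; these differences were not tested. The lowest were Egr1 in club cells, -1.79, Atf3 in B and plasma cells, -1.75, and Klf2 in dendritic cells, -1.57. The highest were Atf3 in T and NK cells, 1.07, and Egr1 in vascular endothelial cells, 1.05. Aerocytes, an endothelial subtype described below, went the other way, with Egr1 at 92.2 CPM in HSK, 271 in HSW, 162 in NK and 286 in NW. HSW against NW and NK against NW share the library NW, and each other pair of comparisons with a group in common likewise shares its library, so that their values are not independent of one another.

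In vascular endothelial cells summed Fos UMIs were not lower under HySu, whereas the share of cells with Fos at equal depth was, with overlapping intervals. They numbered 130 in HSK, 274 in HSW, 135 in NK and 55 in NW, led by Cyp1a1, haemoglobin and endothelial genes such as Calcrl and Ptprb. Fos was at 864 CPM in HSK, 758 in HSW, 729.8 in NK and 672 in NW, a ratio of 1.13 (0.981 to 1.30) in HSW against NW and 1.18 (1.05 to 1.34) in HSK against NK. Neither HySu library was below a normoxia library by this measure. After thinning to 1 depth, 73.1% of HSK and 66.5% of HSW cells held Fos, against 84.8% of NK and 81.2% of NW cells, from 130, 215, 33 and 32 cells, and the thinned ratio of HSK to NK was 0.907. Unthinned shares were 80.0% in HSK, 68.2% in HSW, 80.7% in NK and 74.5% in NW. Dusp1, Klf2 and Fosb in HSW against NW had intervals that held 1, while Jun was at 0.741 (0.688 to 0.798) and Junb at 0.746 (0.652 to 0.856). Of all genes in endothelium 19.8% were at least 1.5-fold lower and 17.2% higher in HSW, and of the 10, 1 was lower and 1 higher.

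The endothelial gene higher in HSW was Atf3, at 262 CPM in HSK, 190.0 in HSW, 86.0 in NK and 88.7 in NW, from 231, 330, 51 and 31 UMIs. In summed UMIs both HySu libraries were above both normoxia libraries, with ratios of 2.14 (1.48 to 3.21) in HSW against NW and 3.05 (2.24 to 4.21) in HSK against NK. The unthinned share of cells with Atf3 was alike in HSW and NW, at 28.1% and 25.5%. It was 43.1% in HSK and 17.8% in NK. After thinning, the intervals of both pairs overlapped. Among aerocytes, with few Atf3 UMIs, HSW was above NW but HSK was not above NK. The rise in summed UMIs rests on the removal of cells that held UMIs of a second lineage: with those cells kept, the ratios were 0.710 and 1.11. Fos depended on the same step, at 0.489 and 0.562 with those cells kept. Egr1 was the gene lower in HSW, at 0.550 (0.473 to 0.641), and 0.881 with those cells kept. Among aerocytes, a capillary subtype described below, Egr1 was at 271 CPM in HSW and 286 in NW, with overlapping intervals. Venous cells, the subtype highest in Egr1, formed sub-clusters of 28 and 11 among 274 cells in HSW and of 4 and 13 among 55 in NW. The part of this mix in the ratio was not tested. In HSK against NK 27.2% of all endothelial genes were at least 1.5-fold lower and 14.8% higher; 1 of the 10, Klf4, was lower and 1, Atf3, higher.

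Klf4 and Klf2 differed between genotypes in endothelium, each in another condition. Klf4 was at 1407 CPM in NK and 612 in NW, a ratio of 2.30 (1.98 to 2.68), and at 879 in HSK and 663 in HSW, a ratio of 1.33 (1.21 to 1.45). Klf2 was at 1173 CPM in NK and 1055 in NW, a ratio of 1.11 (0.978 to 1.26), and at 1532 in HSK and 981 in HSW, a ratio of 1.56 (1.45 to 1.68). Knockout libraries were the higher ones in all 4 comparisons. With second-lineage cells kept, Klf4 in NK against NW came to 1.37 and Klf2 in HSK against HSW to 1.32, neither past the limit. Egr1 was lower in NK than in NW, at 0.602 (0.501 to 0.724), and 0.853 with those cells kept. In NK against NW 17.8% of all endothelial genes were at least 1.5-fold higher and 12.7% lower, with 1 of the 10 each way. In HSK against HSW 8.53% were higher and 11.2% lower, with 1 of the 10 higher and none lower, and 9 of the 10 ratios were above 1. This differed among the subtypes described below. Every immediate early gene of the 10 was lower in HSK than in HSW among aerocytes, Fos, Egr1 and Atf3 with intervals apart. Each was higher in HSK among general capillary cells, but only Fos and Dusp1 had intervals apart, and venous cells were mixed. Haemoglobin stood at 2831 CPM in HSK, 9621 in HSW, 150.0 in NK and 11129 in NW in these cells; its part was not tested.

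Endothelial subtypes, clustered on subtype markers alone, differed in the early genes more than in the flow-induced ones. Pooled over libraries, Fos was at 1555 CPM in 113 venous cells, 818 in 44 arterial cells, 766 in 124 general capillary cells and 390.0 in 154 aerocytes, the capillary cells specialised for gas exchange. Atf3 was at 456, 75.8, 155 and 75.6 CPM in the same order, and Egr1 at 927, 353, 421 and 216. Klf2 ranged from 999 in aerocytes to 1331 in venous cells, and Klf4 from 755 in arterial to 997 in venous cells. Venous cells led in Fos, Atf3 and Egr1 within HSK, HSW and NK alike; 1 venous sub-cluster had Atf3 as its leading gene, 1 general capillary sub-cluster was led by Ager, a marker of alveolar type 1 cells, and 159 endothelial cells, among them sub-clusters of 60 and 34 cells led or marked by haemoglobin genes, were given no subtype.

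Klf2 was higher in HSK than in HSW, and Klf4 highest in NK, in each subtype with 20 cells. Klf4 was at 1607 CPM in NK venous cells, 1550.0 in NK general capillary cells and 1255 in NK aerocytes. HSK had 1039, 849.6 and 640.3, and HSW 909, 483 and 583, so NK was highest and HSW lowest in all 3. The intervals of Klf4 in HSK and HSW overlapped in venous cells and aerocytes. NW had enough cells only as aerocytes, 21, with 825 CPM, so that NK could be set against NW in that subtype alone. Klf2 in HSK was at 1791 CPM in venous cells, 1558 in general capillary cells and 1232 in aerocytes, above 1192, 886 and 864 in HSW. Aerocytes held few UMIs of Atf3, 4 in HSK, 50 in HSW, 5 in NK and 9 in NW, or 21.7, 119, 28.9 and 73.5 CPM in the same order. Fos in aerocytes was at 174 CPM in HSK and 422 in NK, and at 426 in HSW and 547 in NW, lower under HySu in both genotypes. HSK was above NK in venous cells, at 1643 and 1435 CPM, and in general capillary cells, at 966 and 780. Of these Fos comparisons, only that of HSK and NK aerocytes had intervals apart.

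**Figure D5:**
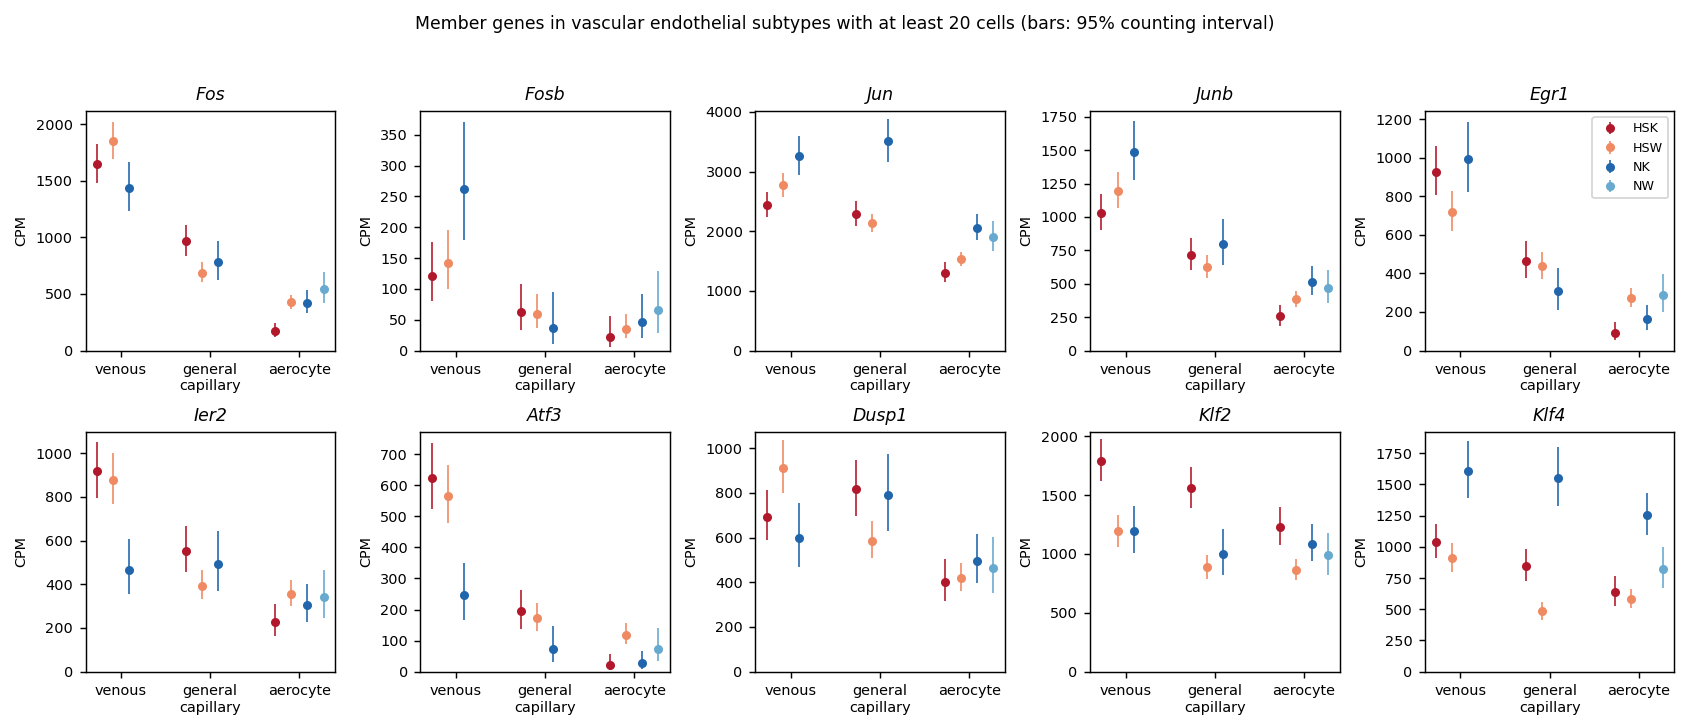
Level (CPM, linear axis) of the genes in endothelial subtypes with at least 20 cells in a library, 1 point per library in the order HSK, HSW, NK, NW, with exact 95% Poisson intervals for counting error. Venous cells lie highest for Fos, Egr1 and Atf3, and NK lies highest for Klf4 in every subtype shown.

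Genes upstream and downstream of the pair were read in endothelium from fixed lists. Ratios of listed genes are given without intervals, and were not set beside values with second-lineage cells kept. Of the flow pathway genes, such as Piezo1, Map3k3, Mef2c and the CCM complex, the median ratio was 1.22 in NK against NW and 1.07 in HSK against HSW, beside 1.04 and 0.985 for all genes. In NK against NW 2 of 10 were at least 1.5-fold higher, Ccm2 at 2.00 and Piezo1 at 1.59, and none lower, with Mef2c at 0.832 and Mef2d at 0.905. In HSK against HSW 1 was lower, Map3k2 at 0.563, followed by Piezo1 at 0.700, and the highest were Map2k5 at 1.46 and Map3k3 at 1.23. HySu gave medians of 1.02 in HSW against NW and 0.769 in HSK against NK, with Mef2c at 0.647, Mef2d at 0.791, Pdcd10 at 1.25 and Ccm2 at 1.51 in the first, and Piezo1 at 0.461, Map3k2 at 0.468, Map2k5 at 1.41 and Pdcd10 at 1.49 in the second.

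The 8 listed targets that flow induces through KLF2 and KLF4 were not higher where Klf2 was. They include Nos3, the endothelial nitric oxide synthase, Thbd, thrombomodulin, and S1pr1. In HSK against HSW all 8 ratios were below 1, with 2 at least 1.5-fold lower, Cdkn1c at 0.146 and Gja4 at 0.494, and S1pr1 and Heg1 nearest to 1, at 0.987 and 0.959; the median was 0.909. In NK against NW the median was 1.06, with S1pr1 at 1.66, Gja4 at 1.33, Tek at 0.958 and Nos3 at 0.505. HySu gave 2 of 8 lower in HSW against NW, Nos3 at 0.441 and Cdkn1c at 0.494, none higher, with Slc9a3r2 at 1.41 and Thbd at 1.24, and a median of 0.882. In HSK against NK 4 of 8 were lower, furthest Cdkn1c at 0.0708 and Gja4 at 0.457, with Slc9a3r2 at 1.21 and Thbd at 1.12, and a median of 0.706.

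Of the genes that laminar flow lowers, HSW had more Angpt2, at 3.93 of NW, and Edn1, the precursor of endothelin, at 2.52, and less Vcam1, at 0.361, and Ccl2, at 0.302. In HSK against NK, Edn1 was at 1.76, Angpt2 at 0.569 and Vcam1 at 0.482. NK against NW gave 1.36 for Edn1 and 0.540 for Vcam1, and HSK against HSW 1.18 for Ccl2, 0.945 for Edn1, 0.721 for Vcam1 and 0.555 for Angpt2. The other Krüppel-like factors had medians of 0.929 in HSW against NW, 1.35 in NK against NW, 0.926 in HSK against HSW and 0.782 in HSK against NK. Klf9, a factor induced by glucocorticoids, was highest of them in NK against NW, at 2.24, and in HSW against NW, at 1.68.

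The upstream ternary complex and MAP kinase genes had endothelial medians of 0.824 in HSW against NW, 1.08 in NK against NW, 0.899 in HSK against HSW and 0.692 in HSK against NK. Srf, the factor that binds the CArG box, was highest of them in NK against NW, at 2.00, and lowest in HSK against NK, at 0.237. Of the other immediate early genes, 7 of 21 were at least 1.5-fold higher in NK than in NW, beside 17.8% of all endothelial genes. Per1 at 10.7 and Csrnp1 at 4.92 led them. A further 3 were lower, beside 12.7%, among them Cyr61 at 0.327 and Nfkbiz at 0.589. The UMI minimum is set over both libraries together. A ratio as far from 1 as that of Per1 can therefore rest on few UMIs in the lower library. Per1, a clock gene, was at 0.200 in HSK against NK, where 8 of 21 were lower, beside 27.2% of all genes, Dusp2 at 0.214, and 1 higher, Ier3 at 1.89, followed by Btg2 at 1.48. HSW against NW had 5 of 20 lower, beside 19.8% of all genes, Trib1 at 0.115 and Nr4a1 at 0.365 the furthest, and 1 higher, Maff at 2.05, followed by Ier3 at 1.47. HSK against HSW had 4 of 19 higher, beside 8.53% of all genes, Fosl2 at 1.76 and Per1 at 1.66 the furthest, and 1 lower, Cyr61 at 0.656. Heat shock genes gave endothelial medians of 0.860, 0.784, 1.10 and 1.07 in HSW against NW, HSK against NK, NK against NW and HSK against HSW.

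Likeness was measured as Pearson's r of log2(CPM + 1) over 48 units of class and library with at least 50 cells, among 8336 genes; units of 1 library share depth and treatment, and units of 1 class its cell type. Fos with Dusp1 and Fos with Fosb each gave 0.95, Fos with Egr1 0.19 and Egr1 with Klf2 0.03. Closest to the mean profile of the 8 immediate early genes were Zfp36 (0.939) and Btg2 (0.923), themselves immediate early genes, then Zeb2 (0.917) and Zfand5 (0.913). Closest to Klf2 were Adgre5 (0.937), Irf1 (0.930), Clk1 (0.928), Neurl3 (0.923) and Srgn (0.923). Klf4 was most like Agpat4 (0.930), Itga5 (0.930), Map7d1 (0.926), Sppl2a (0.922) and Asap1 (0.920). Across cells of 1 class and library thinned to the same depth, r ranged from 0.25 to 0.71 for Fos with Jun and from 0.05 to 0.42 for Klf2 with Klf4; these are sparse counts, and the values describe these cells only.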

How the data were processed

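Single cells were captured in microwells and their polyA RNA was sequenced, per the labels' protocols. The deposited values are raw UMI counts per gene and cell barcode, 1 matrix per library. Per the submitters' processing notes the authors worked with the builds GRCm38 and mm10 and used STAR 2.6.1a, cutadapt 1.17, featureCounts 2.0.1 and Scanpy, in an order not given in the sources used here. The strand setting of the counting is not given in the sources used here, so reads of overlapping antisense genes cannot be told apart.

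Cells with under 200 genes or over 20% mitochondrial UMIs were removed, 1 in HSW and 1 in NK. With scanpy 1.11.5 (Python 3.11.15), 2000 variable genes without the 10 genes and the listed early and heat shock genes, 40 principal components and 20 neighbours gave 32 Leiden clusters (leidenalg 0.10.2, resolution 1, seed 1). A cluster was named where at least 3 markers of a type were each detected in at least 10% of its cells. Scrublet marked 30 cells in HSK, 8 in HSW, 1 in NK and 4 in NW, too few to be taken as a working doublet call. Cells were therefore removed where the markers of a second lineage had at least 3 UMIs and a share of the cell's UMIs over 0.15 of the highest cluster mean for that lineage, or, for cells other than leukocytes, where general leukocyte genes did so against the median cluster. This rule was set after the clusters had been seen. This kept 3653 cells in HSK, 4059 in HSW, 6499 in NK and 5884 in NW.

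UMIs were summed per class and library, scaled to CPM and given exact Poisson intervals. Ratios have exact conditional binomial intervals (scipy 1.17.1). A pair of gene and class was measured with at least 20 UMIs over both libraries and at least 20 cells in each, and a ratio of at least 1.5 or its inverse was counted. The ratios were tested on simulated data with known folds before use. Division by the class median was added after the data had been seen. All 10 genes are described; of the other lists, the text names the 2 highest and the 2 lowest ratios per comparison, and of the genes most alike in profile the 5 highest, of which 1 is not reported here. The members and lists were chosen with earlier results of these data known. Alternatives were TMM factors (edgeR 4.0.16, R 4.3.3), other doublet steps, depth per cell, clustering, weights and UMI minimums.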

Additional observations from a re-analysis of the deposited data

Results flagged for a closer look

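In 3 pairs of gene and class the knockout effect ran in opposite directions in normoxia and under HySu, with both intervals excluding 1 and both effects at least 1.2-fold; none of these differences was tested. Egr1 in vascular endothelial cells was at 0.602 in NK against NW and at 1.25 in HSK against HSW. Their aerocytes, the subtype with at least 20 cells in every library, did not share this. Egr1 there was at 162 CPM in NK and 286 in NW, and at 92.2 in HSK and 271 in HSW, lower in the knockout both times. Egr1 in club cells was at 2.49 in NK against NW and at 0.722 in HSK against HSW. Klf2 in dendritic cells was at 1.38 in NK against NW and at 0.464 in HSK against HSW. The limit of 1.2-fold was set after the values had been seen; 18 pairs had opposite effects with both intervals excluding 1 before it was applied. The intervals cover counting error only, from 1 library a group.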

How the results depend on the processing

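Of the 177 ratios past 1.5-fold in the lower direction, over the 4 comparisons together, 83 stayed past it with TMM factors within a class, 70 after division by the class median, 147 with Scrublet calls alone removed and 148 with no cells removed. Of the 14 past it in the higher direction, the same settings kept 11, 10, 7 and 7. Clustering at resolution 1.5 kept 165 and 13, mean per-cell CPM 165 and 12, totals without mitochondrial, ribosomal, haemoglobin and listed genes 168 and 14, and listed genes among the variable genes 176 and 14. Thinning kept 159 of 176 and 10 of 13, and equal weights for clusters 138 of 160 and 13 of 13. All calls that were still measured stayed with no UMI minimum and with at least 100 UMIs. The class median and the equal weights were chosen after seeing the data. Equal weights used clusters with at least 20 cells in every library, which left 1 cluster in 9 of 14 classes and none in neutrophils.

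Scaling moved the counts most. With TMM factors HSW against NW had 2 pairs higher and 31 lower (1 and 79 by total UMIs), HSK against NK 6 and 34 (3 and 80), and NK against NW 5 higher (8). By the class median they were 2 and 29, 7 and 24, and 4 higher. HSK against HSW had 0 higher with no cells removed and with Scrublet calls alone (2 in the report), and 5 higher and 7 lower with clusters weighted equally (2 and 14). HSW against NW had 2 higher after thinning and at resolution 1.5. The lower count of NK against NW was 8 after thinning and 7 with listed genes allowed (4).

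Of the ratios past 1.5-fold, those that crossed 1 were, with TMM factors, Fosb in ciliated cells (1.01) and Junb, Klf2 and Klf4 in club cells (1.06, 1.22 and 1.03) in HSW against NW, and Fosb and Klf4 in ciliated cells (1.04 and 1.19) and Klf2 and Klf4 in club cells (1.05 and 1.12) in HSK against NK. By the class median the same HSW against NW pairs gave 1.00, 1.03, 1.19 and 1.01, and HSK against NK gave 1.08, 1.01 and 1.24 for Fosb, Klf2 and Klf4 in ciliated cells, 1.09, 1.02 and 1.08 for Jun, Junb and Atf3 in neutrophils and 1.04 and 1.11 for Klf2 and Klf4 in club cells. With no cells removed and with Scrublet calls alone, Fosb in dendritic cells was at 1.04 and 1.07 and endothelial Atf3 at 0.710 and 0.711 in HSW against NW, and Klf4 in T and NK cells at 1.01 and 1.03 and Ier2 in dendritic cells at 1.14 and 1.17 in HSK against HSW. Ier2 there was at 1.10 at resolution 1.5. The setting of equal weights, in T and NK cells the cycling cluster alone, gave 1.30, 1.23 and 3.66 for Fos, Fosb and Klf4 in HSK against HSW. The cause was not tested. Of smaller ratios, endothelial Fos crossed to 0.489 in HSW against NW and 0.562 in HSK against NK with no cells removed. After thinning, endothelial Fos was at 1.55 in NK against NW and 0.907 in HSK against NK, and Atf3 at 2.08 in HSK against NK.

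No paired analysis was possible because each group was 1 library, and none could be left out. Depth limits the classes with few cells, such as alveolar type 1 cells (26 in NK), neutrophils of HSK (35) and endothelium of NW (55).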
